A study of Mus musculus with 21 samples.

Results

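The lipoxygenase genes of the mouse were followed across the skin and the inguinal lymph nodes of *Ifnk* transgenic (TG) and wild-type (WT) mice. The 8 members were taken by gene symbol and were *Alox5*, *Alox5ap*, *Alox8*, *Alox12*, *Alox12b*, *Alox12e*, *Alox15* and *Aloxe3*. They were 8 of the 55491 genes in each of the skin and the lymph node table. All 8 had enough counts to be tested in skin, among 19101 tested genes, and 3 had enough in lymph nodes, among 16173. The members were chosen by symbol alone, but the family was selected on earlier results of these same libraries, its skin and lymph node expression, so the adjusted p-values below place each gene against the calls of the whole table and are not independent support.

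Skin was taken at 12 months of age from BALB/c WT mice (WT, n = 3), from unaffected skin of *Ifnk* TG mice (nonlesional, NL, n = 2) and from their spontaneous lesions (lesional, L, n = 4). Every skin library is labelled as receiving no treatment. Lymph nodes came from WT and *Ifnk* TG mice that received no treatment (NoTx) or UVB at 250 mJ/cm2 on 3 days per week for 2 weeks and were observed for another 2 weeks, with 3 libraries in each of these 4 groups. The transgene drives *Ifnk*, a type I interferon of keratinocytes, from the keratin 14 promoter and so acts in the epidermis. It was made on C57BL/6 and crossed onto BALB/c. The labels do not tie libraries to mice, sexes or body sites, and they give no age for the lymph nodes, so p-values measure the spread between these libraries only.

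Skin libraries held 40499078 to 56511276 counts and lymph node libraries 27599809 to 36428435. *Ifnk* itself had 0 counts in every WT skin and every lymph node library, 0 to 6 in NL skin and 5 to 14 in L skin, so its counts were too low to check the labels beyond that order. The lymph nodes held high levels of B cell markers (summed 991 to 2022 CPM, counts per 1000000 of the scaled library) and of T cell markers (1670 to 2195 CPM) and little of the suprabasal keratinocyte markers (2.76 to 6.12 CPM) or the hair shaft markers (0.0314 to 0.367 CPM). L skin stood apart in its make-up. Its 11 hair shaft markers summed to 2464 to 8272 CPM against 4.49 to 10.4 CPM in the other skin libraries, and its 11 skeletal muscle markers to 31.8 to 9324 CPM against 32949 to 48349 CPM. The 8 adipocyte markers summed to 817 to 4270 CPM in L against 6541 to 10962 CPM in the other skin libraries. In bulk tissue a lower level may be fewer cells of a type or less RNA per cell, and these cannot be told apart.

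Lipoxygenases are iron enzymes that add oxygen to polyunsaturated fatty acids at a set position. *Alox5* with its membrane helper *Alox5ap* makes leukotrienes, which draw leukocytes, and is known from myeloid and mast cells. *Alox12b* and *Aloxe3* act one after the other in the upper epidermis on linoleate bound in acylceramides, a step by which lipids become attached to the cornified envelope, and loss of either causes ichthyosis. *Alox12e* is the epidermal 12-lipoxygenase of the mouse, *Alox12* the platelet type, *Alox15* the 12/15-lipoxygenase of macrophages and eosinophils, and *Alox8* an 8-lipoxygenase known for its induction in mouse skin by phorbol ester.

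Of the 8 genes, 6 lay on chromosome 11 in a pair of clusters (GRCm38, GENCODE release M21). The first held *Aloxe3* (69125896 to 69149115, plus strand), *Alox12b* (69156989 to 69169792, plus strand) and *Alox8* (69183932 to 69197843, minus strand) within 71.9 kb. The second held *Alox12* (70241457 to 70255353), *Alox12e* (70315610 to 70322628) and *Alox15* (70344152 to 70352031), all on the minus strand, within 111 kb and 1.04 Mb away from the first. *Alox5* lay on chromosome 6 (116410077 to 116461178, minus strand) and *Alox5ap* on chromosome 5 (149264767 to 149288153, plus strand), where a ribosomal RNA gene and the antisense gene *Gm19719* overlap it. All 8 are protein coding, and counts cover whole genes, not single exons. Whether counting used strand is not given in the sources used here, so reads of *Alox5ap* and *Gm19719* may be mixed.

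The sequences just before the start sites of *Alox8* and *Alox5* are shown because these were the members with the largest rise and the largest fall in lesions. RefSeq windows on GRCm38.p6 were matched for 5 of the 8 members, *Alox5*, *Alox8*, *Alox12*, *Alox12b* and *Alox12e*. Each line gives the 250 bases before the start, 5′ to 3′ on the gene's strand (for *Alox8* chr11:69197844-69198093 and for *Alox5* chr6:116461179-116461428, both minus), with the GC box GGGCGG in capitals.
Alox8: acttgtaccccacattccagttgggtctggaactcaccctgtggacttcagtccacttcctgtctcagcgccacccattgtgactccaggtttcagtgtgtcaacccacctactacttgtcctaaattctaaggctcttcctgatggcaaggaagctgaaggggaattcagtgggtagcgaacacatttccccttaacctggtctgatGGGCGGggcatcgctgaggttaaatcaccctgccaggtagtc
Alox5: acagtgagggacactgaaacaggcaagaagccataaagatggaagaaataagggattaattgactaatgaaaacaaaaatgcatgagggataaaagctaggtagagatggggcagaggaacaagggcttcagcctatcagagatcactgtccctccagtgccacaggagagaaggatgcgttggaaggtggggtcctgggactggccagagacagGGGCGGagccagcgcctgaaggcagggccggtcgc
The GC box was searched on both strands. It occurred once in *Alox8*, beginning 42 bases before the start, and once in *Alox5*, beginning 35 bases before it, and 32.7% of 32851 RefSeq windows of this length hold it. All 5 matched windows held at least 1 GC box, with 2 in *Alox12* and 3 in *Alox12b*. The letters TGANTCA of an AP-1 site (in 6.75% of windows), TATAAA of a TATA box (12.4%), TTTC, 2 bases of any kind and TTTC of an interferon-stimulated response element (2.98%) and TTCNNNGAA of a gamma-activated site (7.02%) were in none of the 5. The shared letters are a description of these windows.

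In lesional skin 3 lipoxygenase genes were higher and 1 was lower than in WT skin. *Alox8* was 36.2-fold higher, *Alox12e* 2.33-fold and *Alox12b* 1.74-fold, whereas *Alox5* fell to 0.446 of its WT level. Lesions differed from WT skin in much of the transcriptome. Of all tested genes 43.1% were called, 23.0% higher and 20.2% lower (edgeR quasi-likelihood test, adjusted p under 0.05), so 4 called members of 8 is near the background. The median log2 fold change of the 8 was 0.72, against 0.061 over all tested genes. The libraries of L and WT did not overlap for *Alox8*, as for 26% of all tested genes in that direction, nor for *Alox5*, as for 23.4% in the other.

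**Figure D1:**
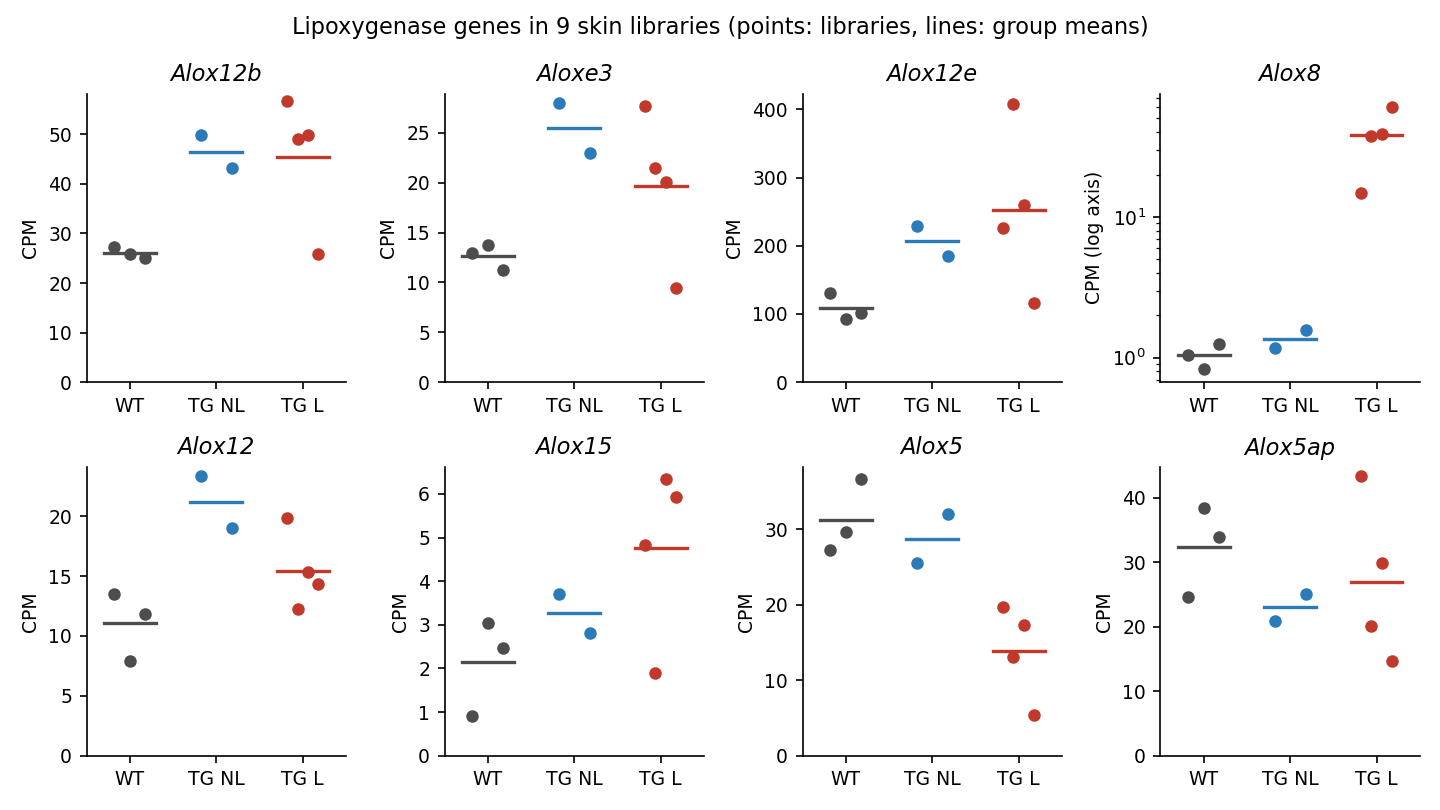
CPM of the 8 genes in each of the 9 skin libraries, grouped as WT (n = 3), TG NL (n = 2) and TG L (n = 4). Points are libraries, lines are group means, and only the *Alox8* axis is logarithmic. All 4 L libraries lie above every other library for *Alox8* (14.7 to 60.7 CPM) and below every other library for *Alox5* (5.42 to 19.7 CPM). L and WT did not overlap in these directions for 26% and 23.4% of all tested genes, and L and NL for 24.7% in each.

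Of the pair that serves the cornified lipid envelope, *Alox12b* was called higher in L than in WT skin and *Aloxe3* was not, and neither was called in NL against WT (edgeR adjusted p = 0.575 and 0.597). *Alox12b*, the first enzyme of the pair, had 27.3, 25.9 and 25.1 CPM in the WT libraries, 49.8 and 43.2 CPM in NL and 56.7, 49.1, 49.9 and 25.8 CPM in L. Its WT values were close together, both NL libraries and 3 of the L libraries lay well above them, and 1 L library lay among them. *Alox12b* rose in L against WT by 0.80 on the log2 scale (SE 0.24, edgeR adjusted p = 0.0242). The call was lost when any WT library, or L sample 4 or 6, was left out (adjusted p from 0.0504 to 0.0769) and in a fit of L and WT alone (0.0505).

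*Aloxe3*, which turns the hydroperoxide made by *Alox12b* into an epoxyalcohol, had 13.0, 13.7 and 11.3 CPM in WT, 28.0 and 23.0 CPM in NL and 27.7, 21.5, 20.1 and 9.44 CPM in L. The pattern was that of *Alox12b*, with L sample 7 the lowest of all 9 libraries. Its log2 fold change in L against WT was 0.64 (SE 0.31, edgeR adjusted p = 0.127), and without L sample 7 it was 0.87 and passed (adjusted p = 0.00387).

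Between L and NL neither gene passed the test. The log2 fold change was -0.035 for *Alox12b* (interval -0.55 to 0.48) and -0.38 for *Aloxe3* (-1.04 to 0.29), with intervals of 1.96 SE. The distance between profiles was the root mean square difference of log2 CPM over the 9 skin libraries, each gene centred on its mean. Among all pairs of members it was smallest for *Alox12b* and *Aloxe3* (0.307), then for *Alox12b* and *Alox12e* (0.359) and for *Alox12* and *Alox12b* (0.370). Genes outside the family lay nearer, the 3 nearest at 0.105 to 0.122 from *Alox12b* and at 0.183 to 0.219 from *Aloxe3*.

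Summed keratinocyte markers, suprabasal and basal, moved with this pair. The 14 suprabasal and cornified keratinocyte markers, which include *Krt1*, *Krt10*, *Lor* and *Flg*, summed to 12443 to 15744 CPM in WT, 23768 to 24878 CPM in NL and 10173 to 28682 CPM in L, where sample 7 was again the lowest. In L against WT 7 of the 14 rose and none fell. Per 1000 CPM of these markers *Alox12b* stood at 1.91 ± 0.15 (SD, n = 3) in WT, 1.91 ± 0.13 (SD, n = 2) in NL and 2.27 ± 0.23 (SD, n = 4) in L. For *Aloxe3* the values were 0.923 ± 0.11 (SD, n = 3), 1.05 ± 0.11 (SD, n = 2) and 0.953 ± 0.036 (SD, n = 4). On this ratio, chosen after the values were seen, the groups lay much closer than on the CPM scale, at 1.19 times WT in L for *Alox12b* and 1.03 times for *Aloxe3*. The 7 basal keratinocyte markers summed to 5575 to 6895 CPM in WT, 10404 to 10620 CPM in NL and 4109 to 10331 CPM in L. Sample 7 was the lowest there too, and 1 of the 7 rose and 1 fell in L against WT. Per 1000 CPM of basal markers, *Alox12b* stood at 1.36 times WT in L and *Aloxe3* at 1.18 times. The part of the keratinocyte share in the rise was not tested.

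**Figure D2:**
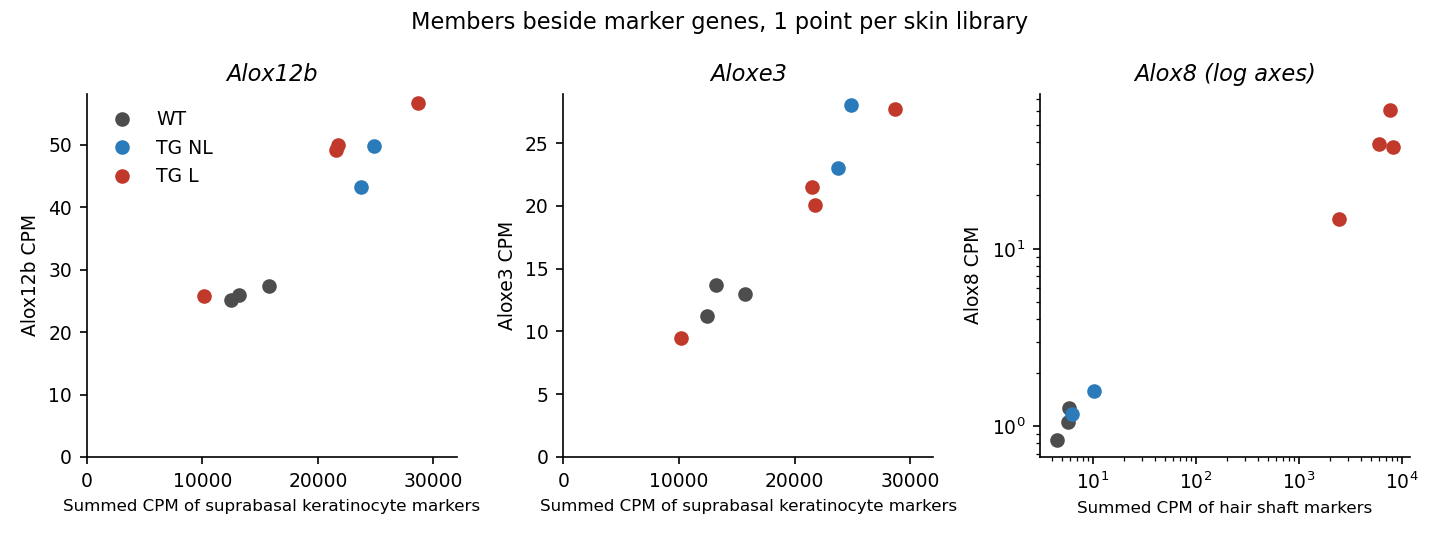
CPM of *Alox12b* and *Aloxe3* (vertical) against the summed CPM of 14 suprabasal keratinocyte markers (horizontal), and of *Alox8* against the summed CPM of 11 hair shaft markers on log axes, with 1 point for each of the 9 skin libraries coloured by group. *Alox12b* and *Aloxe3* rise with the markers across groups, with L sample 7 at the lower end, and *Alox8* and the hair shaft markers are both high in the 4 L libraries alone.

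*Alox12e*, the epidermal 12-lipoxygenase, was the member with the highest level per length in every skin group. It had 131, 92.7 and 101 CPM in WT, 229 and 185 CPM in NL and 226, 408, 259 and 116 CPM in L. Both NL libraries and 3 of 4 L libraries exceeded all WT libraries, and L sample 7 fell inside the WT range. *Alox12e* rose in L against WT by 1.22 on the log2 scale (SE 0.37, edgeR adjusted p = 0.0285), and the call was lost without WT sample 9 or 10 or L sample 6 (adjusted p from 0.0523 to 0.0945), without a filter on low counts (0.0586) and in a fit of L and WT alone (0.0503). Per 1000 CPM of suprabasal markers it stood at 7.84 ± 0.70 (SD, n = 3) in WT, 8.49 ± 0.99 (SD, n = 2) in NL and 12.5 ± 4.6 (SD, n = 4) in L.

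*Alox12*, the platelet-type enzyme, had 13.5, 7.88 and 11.8 CPM in WT, 23.3 and 19.0 CPM in NL and 19.8, 12.2, 15.4 and 14.3 CPM in L. NL was the highest group and L overlapped WT, with a log2 fold change of 0.48 in L against WT (SE 0.22, edgeR adjusted p = 0.111). The 7 platelet and megakaryocyte markers summed to 25.3 to 50.4 CPM in WT and to 13.0 to 24.6 CPM in the 6 *Ifnk* TG libraries. They did not move one way, since of the 5 tested in L against WT *Itga2b* and *Gp1bb* rose and *Pf4*, with most of the summed level, fell (median log2 fold change -0.11). *Alox12* per 1000 CPM of suprabasal markers was 0.801 ± 0.182 (SD, n = 3) in WT and 0.843 ± 0.382 (SD, n = 4) in L.

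*Alox8* gave the clearest contrast of the family. It had 1.05, 0.831 and 1.26 CPM in WT, 1.17 and 1.57 CPM in NL and 14.7, 37.5, 38.9 and 60.7 CPM in L. These are 35 to 51 counts in WT, 61 and 64 in NL and 808 to 3368 in L, so the low groups lie well above the floor of 3 counts. The groups L and WT did not overlap, nor did L and NL (as for 24.7% of all tested genes in that direction), whereas NL and WT did. *Alox8* rose by 5.18 on the log2 scale in L against WT (SE 0.51, edgeR adjusted p = 0.000255) and by 4.80 in L against NL (SE 0.60, adjusted p = 0.00177). It kept both calls in each of the 16 alternative analyses (adjusted p up to 0.00238 and 0.0284). These include leaving out hair shaft, muscle and adipocyte genes before scaling, which does not remove the other RNA of those cells. In NL against WT the log2 fold change of *Alox8* was 0.38 (interval -0.67 to 1.43).

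*Alox12b*, the next gene on the chromosome, was 1.74-fold higher in L than in WT, and the fold for *Aloxe3* was 1.56, with no call. Beside *Alox8*, the 11 hair shaft markers all rose in L against WT and in L against NL. Within the 4 L libraries *Alox8* stood at 5.97, 4.53, 6.43 and 7.79 CPM per 1000 CPM of hair shaft markers and at 6.43, 6.84, 9.93 and 14.97 CPM per 1000 CPM of sebaceous gland markers, both narrower ranges than that of its CPM. These 2 of 5 lists were chosen after the values were seen. In WT and NL, where the hair shaft markers sum to 4.49 to 10.4 CPM, the ratio to them was 152 to 212, so *Alox8* did not scale with them across groups. The 8 sebaceous gland markers summed to 1909 to 2909 CPM in WT and NL and to 2289 to 5482 CPM in L, and 4 of the 8 rose in L against WT and none fell. The hair shaft and sebaceous shares, and the body site from which lesions were cut, were not tested as sources of the *Alox8* rise.

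*Alox5*, the leukotriene-forming enzyme, moved the opposite way. It had 27.3, 29.6 and 36.6 CPM in WT, 25.5 and 32.0 CPM in NL and 19.7, 13.0, 17.3 and 5.42 CPM in L. Every L library lay below every WT and NL library, as for 23.4% of all tested genes against WT and 24.7% against NL. *Alox5* fell by 1.17 on the log2 scale in L against WT (SE 0.37, edgeR adjusted p = 0.0338), and the call was lost without any 1 of the 3 WT libraries, L sample 5 or NL sample 2 (adjusted p from 0.0521 to 0.103), and without a filter on low counts (0.0573). Against NL its log2 fold change in L was -1.05 (SE 0.41, edgeR adjusted p = 0.0956), which passed with DESeq2 (adjusted p = 0.0461) and without L sample 7 (edgeR adjusted p = 0.0294).

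*Alox5ap*, the helper that presents arachidonic acid to *Alox5*, was not called in any skin comparison. It had 24.7, 38.4 and 34.0 CPM in WT, 20.9 and 25.1 CPM in NL and 43.3, 20.1, 29.9 and 14.7 CPM in L. The L libraries spanned the values of all others, with a log2 fold change of -0.26 against WT (interval -0.93 to 0.41, edgeR adjusted p = 0.570), and the interval for *Alox5* was -1.89 to -0.44. The difference between the changes of the 2 genes was not tested. Within L the 4 libraries had the same order for both genes, highest in sample 4 and lowest in sample 7. Myeloid markers did not move as 1 block. The 8 macrophage markers summed to 863 to 2266 CPM in WT and 563 to 1781 CPM in L and none was called, the 8 mast cell markers to 138 to 310 CPM and 105 to 269 CPM with none called, and the 10 neutrophil markers to 12.2 to 20.8 CPM and 65.3 to 574 CPM with 4 of 8 tested higher. In L against WT none of the 8 macrophage markers had a log2 fold change above 0 (median -0.62). For mast cell markers 4 of 8 lay above 0 (median 0.25), and for neutrophil markers 7 of the 8 tested (median 2.52). The part of these markers in the levels of *Alox5* and *Alox5ap* was not tested.

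*Alox15*, the 12/15-lipoxygenase, had the lowest level of the family in L skin. It had 0.912, 3.04 and 2.47 CPM in WT, 3.71 and 2.82 CPM in NL and 4.83, 1.90, 6.35 and 5.93 CPM in L. In 3 of 4 L libraries it exceeded all other skin libraries, and L sample 5 fell among the WT values. Its log2 fold change in L against WT was 1.15 (SE 0.49, edgeR adjusted p = 0.0902), and without L sample 5 it was 1.41 and passed (adjusted p = 0.0244). The 5 eosinophil markers summed to at most 7.92 CPM in any skin library, with *Epx* at 0 in all.

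**Figure D3:**
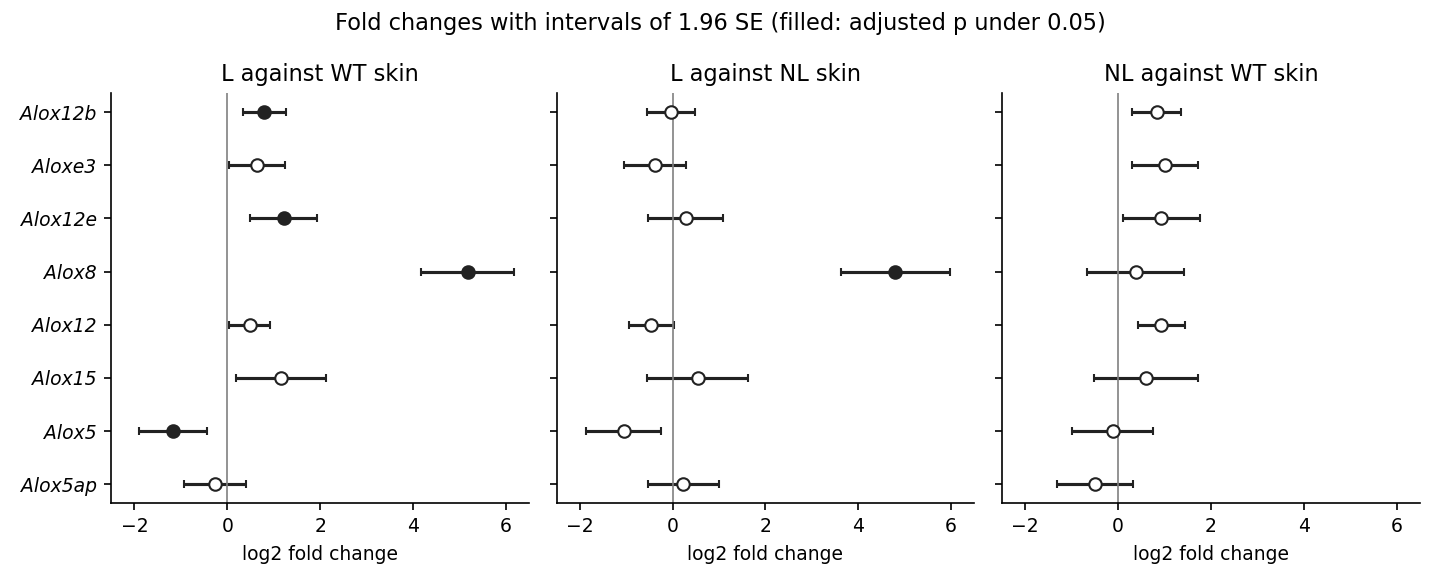
Log2 fold changes of the 8 genes in L against WT, L against NL and NL against WT skin, from edgeR fitted to all 9 skin libraries. Bars are intervals of 1.96 SE, and filled points have an adjusted p under 0.05. *Alox8* is filled in both comparisons of L (5.18 and 4.80), and *Alox12b*, *Alox12e* and *Alox5* in L against WT alone.

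Lesional against nonlesional skin is a comparison within *Ifnk* TG skin. L also differed from NL in hair shaft, skeletal muscle and adipocyte markers, and the labels give no body site. Lesion, site and tissue make-up cannot be told apart here. *Alox8* was the 1 member called of 8, beside 25.0% of all tested genes (13.2% higher, 11.8% lower), or 4782 genes, 3156 when L and NL were fitted without WT, 1470 without NL sample 2 and 1182 without NL sample 3. The median log2 fold change of the members was 0.098, against 0.034 over all tested genes. *Alox12* and *Aloxe3* had lower means in L than in NL (log2 fold changes of -0.46 and -0.38), *Alox15* and *Alox12e* higher ones (0.54 and 0.29), and *Alox5ap* 0.23, with edgeR adjusted p from 0.201 to 0.705 for these 5. The L libraries overlapped the NL libraries for all of them.

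Nonlesional against WT skin compares the genotypes without a lesion. The labels give no sex, mouse or body site, so the transgene cannot be told apart from differences in these. No member was called by edgeR or by DESeq2, beside 0% of all tested genes in edgeR (62 genes in DESeq2). At an unadjusted p under 0.05 edgeR passed 3 members, *Alox12*, *Alox12b* and *Aloxe3*, beside 7.67% of all tested genes. In 4 of the 8 members, *Alox12*, *Alox12b*, *Alox12e* and *Aloxe3*, both NL libraries lay above all 3 WT libraries, which held for 18.6% of all tested genes. Their log2 fold changes were 0.94, 0.83, 0.93 and 1.01, with edgeR adjusted p from 0.503 to 0.660. The remaining 4 overlapped. This comparison shares its WT libraries with L against WT, and NL has 2 libraries.

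On a scale per length, in CPM per kb of exon (FPKM), the order of the members could be compared within a group. In WT skin *Alox12e* led with a mean of 38.4 FPKM, followed by *Alox5ap* (22.8), *Alox12b* (10.7), *Alox5* (7.59), *Alox12* (2.71), *Aloxe3* (1.98), *Alox15* (0.873) and *Alox8* (0.294). Of the neighbours in that order, the ranges of *Alox12* and *Aloxe3* overlapped. In NL skin *Alox12e* reached 73.2 FPKM, *Alox12b* (19.1) stood before *Alox5ap* (16.2), and *Alox8* was again last (0.384), with no overlap between neighbours over its 2 libraries. In L skin *Alox12e* (89.3) was followed by *Alox5ap* (19.0), *Alox12b* (18.7) and *Alox8* (10.7), which had moved from the last to the fourth place, then *Alox12* (3.78), *Alox5* (3.38), *Aloxe3* (3.08) and *Alox15* (1.94). In L all neighbours but *Alox12e* and *Alox5ap* overlapped in range. Lengths are those of GENCODE, since the annotation release used for counting is not given in the sources used here.

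The genes nearest to members by profile over the 9 skin libraries are given as a description, since these libraries share tissue make-up. *Alox12b* lay nearest to *Gltp*, *Tmem154* and *Them5* (distances 0.105 to 0.122) and *Aloxe3* to *Krt10*, *Ttc39a* and *Il17rc* (0.183 to 0.219). *Krt10* is a keratin of the suprabasal epidermis and *Gltp* a glycolipid transfer protein. *Alox12e* lay nearest to *Skint2*, *Rhbg* and *Slc27a3* (0.117 to 0.219) and *Alox12* to *Zfp760*, *Sh2d4a* and *Map10* (0.232 to 0.239). *Alox5* lay nearest to *1810010H24Rik*, *Tgfb2* and *Clip4* (0.203 to 0.220). *Alox8* lay nearest to *Themis3*, *Cybrd1* and *Hoxc13* (0.355 to 0.406), of which *Hoxc13* is a homeobox gene of the hair follicle, and *Alox15* to *Pglyrp1*, *F5* and *Derl3* (0.353 to 0.415).

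Around the members, most genes of the corneocyte lipid envelope rose in lesions, and those of leukotriene and prostanoid signaling were called in both directions. The lists hold no member, and their counts stand beside the 23.0% of all tested genes called higher and 20.2% called lower in L against WT. Of 19 envelope genes, 14 rose in L against WT and none fell, with a median log2 fold change of 1.25 against 0.061 over all tested genes. The called genes with the largest changes were *Degs2* (6.38), a ceramide hydroxylase, *Fa2h* (2.20), a fatty acid hydroxylase, *Slc27a4* (2.05), a fatty acid transporter, and *Elovl4* (2.03), which elongates very long fatty acids. Among those not called, *Elovl1* (0.21) and *Abca12* (0.39), a lipid transporter of lamellar granules, had the highest levels. Against NL, 8 of the 19 rose in L and none fell, beside 13.2% and 11.8% of all tested genes. In NL against WT none of the 19 was called, and 18 had a log2 fold change above 0, with a median of 0.54. The 14 suprabasal keratinocyte markers, none of them called, were all above 0 in that comparison, with a median of 0.76. In L against WT their median was 0.73, and that of the 8 sebaceous gland markers was 1.16. The part of these markers in the envelope values was not tested.

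Of 15 leukotriene genes 14 were tested, *Oxgr1* being listed at 0 in every skin group, and 4 rose and 3 fell in L against WT (median 0.11). *Mgst2*, a leukotriene C4-forming transferase, rose by 2.09 on the log2 scale and *Ltb4r1*, a receptor of leukotriene B4, by 1.30. *Ltc4s*, the leukotriene C4 synthase, fell by 1.22 and *Cysltr1*, a receptor of cysteinyl leukotrienes, by 0.96. *Ptgr1* and *Dpep1* had the highest levels of those not called, with log2 fold changes of 0.25 and -0.71. Against NL, 1 rose and 1 fell in L.

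Of 22 prostanoid genes 2 rose and 7 fell in L against WT (median -0.15). *Ptgds*, a prostaglandin D synthase, rose by 2.87, whereas *Ptgis*, the prostacyclin synthase, fell by 2.07, and the receptors *Ptgfr* and *Ptger3* fell by 1.62 and 1.55. *Ptgs1* (-0.21) and *Ptges* (0.71) had the highest levels of those not called. Between L and NL, 1 rose and 4 fell.

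Of 10 receptors and hydrolases of other lipid mediators 9 were tested, and 2 rose and 3 fell in L against WT (median -0.31). *Fpr2*, a receptor of lipoxin and of formyl peptides, rose by 3.06 and *Gpr37* by 2.07. *Cmklr1*, a receptor of chemerin, fell by 1.77 and *Lgr6* by 0.66. *Gpx1* and *Ephx1* were the genes with the highest levels that were not called (-0.16 and -0.53). Of these 9, 2 rose and 3 fell in L against NL.

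**Figure D4:**
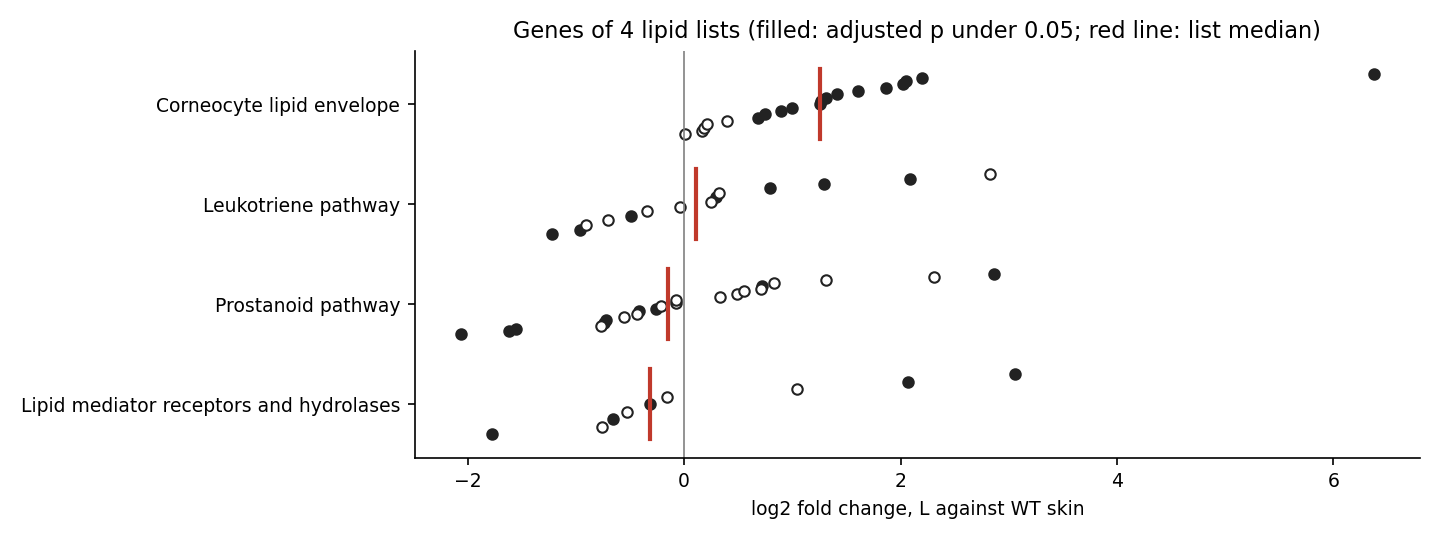
Log2 fold change in L against WT skin of each tested gene in the 4 lipid lists, none of which holds a lipoxygenase. Each point is a gene, filled where the edgeR adjusted p is under 0.05, and red lines are list medians. All 19 envelope genes lie above 0 (median 1.25), and the other lists spread to both sides of 0 (medians 0.11, -0.15 and -0.31).

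In lymph nodes most of the family was at or near 0. *Alox5ap* was the most abundant member, at 6.18 to 10.2 CPM in the 12 libraries. *Alox8* had 0.541 to 2.12 CPM and *Alox5* 0.0314 to 0.720 CPM. The other 5 members were too low to test, with 0 to 7 counts for *Alox12*, 0 to 3 for *Alox12b*, 0 to 1 for *Alox12e*, 1 to 9 for *Alox15* and 0 to 8 for *Aloxe3*. *Alox12e*, the leading member in skin, had 0 counts in 11 of the 12 lymph node libraries, and the limit that a count of 0 allows is 3 counts, or at most 1.09e-05% of a library.

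No member was called in any of the 5 lymph node comparisons by edgeR or by DESeq2, which gave no adjusted p for *Alox5* with UVB in WT nodes. Calls over all tested genes were 4.98% for UVB against none in WT mice (805 genes in edgeR, 1967 in DESeq2) and 0% for UVB in *Ifnk* TG mice, for *Ifnk* TG against WT without and after UVB, and for the difference of the UVB responses (132, 2, 18 and 5 genes in DESeq2). The 805 rested on single libraries, with 0 genes called without WT UVB sample 8, 7 without untreated WT sample 3, 29 without WT UVB sample 9 and 2644 without *Ifnk* TG UVB sample 12. Without this last library 236 genes were called for UVB in *Ifnk* TG nodes. At an unadjusted p under 0.05, edgeR passed 0, 1, 2, 0 and 2 of the 3 tested members in these 5 comparisons, beside 26.3%, 9.32%, 3.39%, 6.99% and 5.45% of all tested genes.

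*Alox5* was low in lymph nodes and did not overlap between the genotypes without UVB. It had 3, 1 and 4 counts in untreated WT nodes, 21, 23 and 25 in untreated *Ifnk* TG nodes, 6, 8 and 5 in WT nodes after UVB and 11, 2 and 16 in *Ifnk* TG nodes after UVB. The untreated *Ifnk* TG libraries exceeded all others, whereas after UVB the genotypes overlapped. Only in untreated *Ifnk* TG nodes did every library exceed the filter's minimum count of 10. *Alox5* thus entered the test through the group where it is high, and its separation and fold there are a description, not independent support. Groups did not overlap in this direction for 5.52% of all tested genes between untreated *Ifnk* TG and WT nodes and for 7.11% between UVB and untreated *Ifnk* TG nodes, and WT nodes after UVB lay above untreated WT nodes, as for 19.8%. The log2 fold change of *Ifnk* TG against WT was 2.92 in untreated nodes (SE 0.65, edgeR unadjusted p = 0.000498, adjusted p = 1.00) and 0.52 after UVB (SE 0.61, adjusted p = 0.871). The difference of the UVB responses was -2.40 (SE 0.90, adjusted p = 0.848), so neither passed the threshold over all genes, and untreated WT nodes held 1 to 4 counts. The neutrophil markers summed to 10.3 to 17.6 CPM in untreated *Ifnk* TG nodes and 5.16 to 8.66 CPM in untreated WT nodes, and the macrophage markers to 297 to 575 CPM and 218 to 350 CPM. Their part in the *Alox5* counts was not tested.

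*Alox8* showed the reverse order in untreated nodes. It had 36, 36 and 69 counts in untreated WT nodes, 20, 24 and 23 in untreated *Ifnk* TG nodes, 32, 19 and 36 in WT nodes after UVB and 42, 25 and 37 in *Ifnk* TG nodes after UVB. Untreated *Ifnk* TG libraries lay below all untreated WT libraries and below all *Ifnk* TG libraries after UVB, as for 4.93% and 6.23% of all tested genes. The log2 fold change of *Ifnk* TG against WT was -1.20 in untreated nodes (SE 0.35, edgeR unadjusted p = 0.00389, adjusted p = 1.00), and that of UVB in *Ifnk* TG mice was 0.77 (SE 0.35, adjusted p = 0.514). Hair shaft markers summed to at most 0.367 CPM in every node, below the lowest *Alox8* value of 0.541 CPM. Sebaceous gland markers summed to 327 to 758 CPM in the nodes, with *Elovl3* and *Dgat2l6* at 0 in every group. Only 3 of these 8 markers had enough counts to be tested in nodes, so the sum rests on few genes of the list. The part of either list in the *Alox8* counts was not tested.

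*Alox5ap* was not called in any lymph node comparison and had means of 7.27 ± 0.95 CPM (SD, n = 3) in untreated WT, 8.74 ± 0.51 CPM (SD, n = 3) in untreated *Ifnk* TG, 8.00 ± 0.84 CPM (SD, n = 3) in WT after UVB and 8.82 ± 1.24 CPM (SD, n = 3) in *Ifnk* TG after UVB. Its log2 fold change was 0.27 for *Ifnk* TG against WT in untreated nodes (interval -0.036 to 0.57), where the untreated *Ifnk* TG libraries lay above all untreated WT libraries, as for 5.52% of all tested genes. It was 0.013 for UVB in *Ifnk* TG mice (interval -0.29 to 0.31). By profile over the 12 lymph node libraries it lay nearest to *Zbtb7a*, *Pgp* and *Akt1s1* (distances 0.0941 to 0.1000), *Alox8* to *Gm42576*, *Tas1r3* and *Siah3* (0.292 to 0.304) and *Alox5* to *Coro2b*, *Ccr10* and *Pigz* (0.621 to 0.630).

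**Figure D5:**
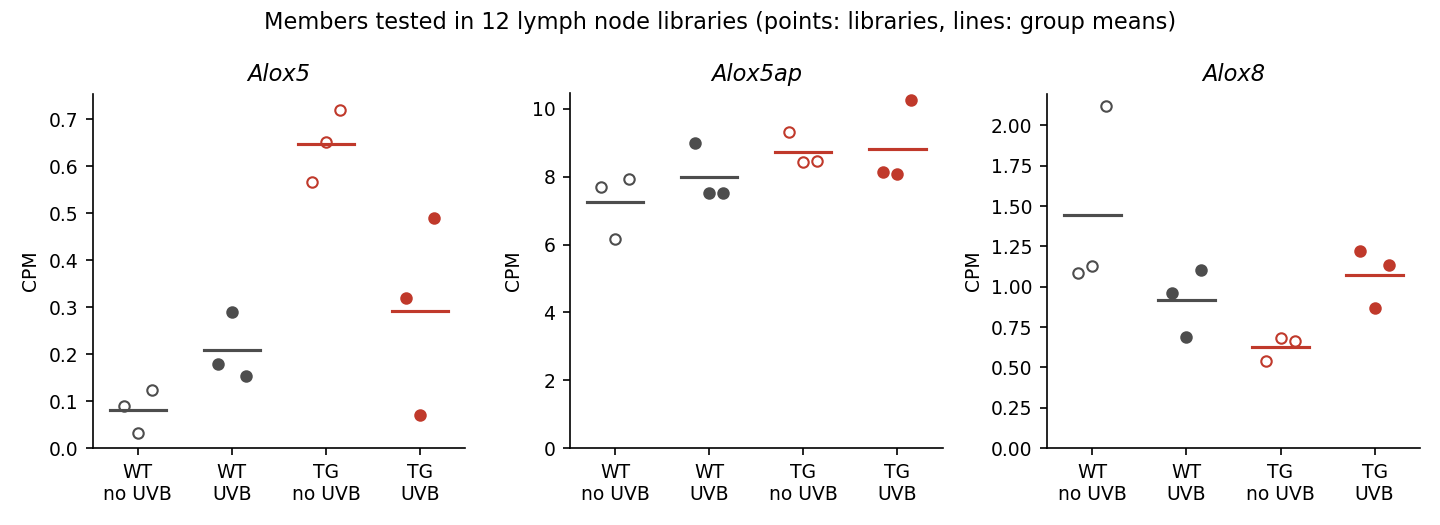
CPM of the 3 members tested in lymph nodes, with 3 libraries per group (open points without UVB, filled points after UVB, gray WT, red *Ifnk* TG) and lines at group means. *Alox5* is highest in untreated *Ifnk* TG nodes (21 to 25 counts), where *Alox8* is lowest (20 to 24 counts), and *Alox5ap* lies between 6.18 and 10.2 CPM throughout.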

How the data were processed

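RNA of 9 skin and 12 inguinal lymph node samples was sequenced from poly-A libraries. Per the submitters' processing notes the tools were cutadapt 4.8, FastQC 0.11.8, STAR 2.7.8a, RSEM 1.3.3 and MultiQC 1.20, with GRCm38. The authors deposited RSEM expected counts per gene, which are whole numbers and are not normalized. RSEM divides reads that fit several genes, so reads shared by related lipoxygenases are estimates.

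Analysis used R 4.3.3 and edgeR 4.0.16. Its filterByExpr chose the genes tested (minimum count 10, minimum total 15), TMM scaled the libraries, and the counts were fitted for all libraries of a tissue together by group with the robust quasi-likelihood model. P-values were adjusted by Benjamini-Hochberg over all genes tested, with a threshold of 0.05, and standard errors were derived from the F statistic. CPM are counts over the scaled library size, and FPKM are CPM per kb of GENCODE exon length. Profiles used log2 CPM with a prior count of 2. The 8 members and all lists were chosen with earlier results of these data known, and no list was tested as a set. All 8 members are named in each comparison or accounted for. Of each pathway list, up to 4 called genes with the largest changes and up to 2 not called with the highest mean CPM are named, and of each tested member the 3 nearest genes, except that those of *Alox5ap* in skin are not reported here.

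The alternatives were DESeq2 1.42.0, RLE or upper-quartile scaling, no filter, no robust estimation, the compared groups alone, hair shaft, muscle and adipocyte genes left out (skin), and each library left out in turn. The fits were tested on simulated counts. The limit allowed by a count of 0, taken as 3 counts, is 5.31e-06% to 7.41e-06% of the skin libraries and 8.24e-06% to 1.09e-05% of those from nodes, for counting error only. Libraries of a group differed from each other by more than sampling noise (chi-square per degree of freedom 15.1 to 342), so none was counted as a duplicate.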

Additional observations from a re-analysis of the deposited data

How the results depend on the processing

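Of 649 values of single members under an alternative, 616 kept their direction and their side of the threshold, 17 lost the call, 4 gained it and 12 changed sign, none of these 12 with a call. The 616 include *Alox5* with UVB in WT nodes by DESeq2, which had no adjusted p. The number of members called in L against WT skin was 4, and it was 2 without a filter on low counts (*Alox8* and *Alox12b*), 2 with the compared groups alone (*Alox5* and *Alox8*) and 1 to 5 without 1 library, with 1 call left, *Alox8*, without WT sample 9 or 10. In L against NL it was 1, 2 with DESeq2 (*Alox5* and *Alox8*) and 1 to 2 without 1 library. In the other 6 comparisons it was 0 throughout. Why these counts moved was not tested. *Alox8* kept its calls in L against WT and L against NL in all 16 alternatives.

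The changes of sign were small. Without 1 library the log2 fold change in L against NL ranged from -0.094 to 0.44 for *Alox5ap* (below 0 without L sample 4), from -0.16 to 0.16 for *Alox12b* (above 0 without L sample 7 or NL sample 2) and from -0.044 to 0.53 for *Alox12e* (below 0 without L sample 5). It ranged from -0.32 to 0.037 for *Alox5* in NL against WT (above 0 without NL sample 2 or WT sample 10), from -0.13 to 0.073 for *Alox5ap* with UVB in *Ifnk* TG nodes (below 0 without untreated sample 5 or 6 or UVB sample 12) and from -0.039 to 0.98 for *Alox5* in *Ifnk* TG against WT nodes after UVB (below 0 without *Ifnk* TG sample 12). For *Alox5ap* with UVB in *Ifnk* TG nodes it was also -0.017 with upper-quartile scaling and -0.0021 with the compared groups alone.

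No paired analysis was possible because the labels do not tie libraries to mice. Calls over all genes for UVB in WT nodes were 805, 1967 with DESeq2, 2431 with the compared groups alone and 0 to 2644 without 1 library (0 without WT UVB sample 8, 2644 without *Ifnk* TG UVB sample 12). Depth limits the 5 members with at most 9 counts in every node, and 2 NL libraries limit the skin comparisons that use them.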
